A study of Mus musculus with 12 samples.

Results

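The genes described here are 9 genes of red blood cells, taken by name from the deposited gene expression table out of 28999 genes. They are the adult alpha globins Hba-a1 and Hba-a2, the adult beta globins Hbb-bs and Hbb-bt, the haem synthesis enzyme Alas2, the anion exchanger Slc4a1, the carbonic anhydrases Car1 and Car2, and the transferrin receptor Tfrc. Each had 1 row, and all 9 passed the filter on low counts. RNA was sequenced from sorted mouse bone marrow cells labelled LT-HSCs, long-term stem cells of the blood that renew it over a lifetime. The 12 libraries fall into 4 groups of 3, which were Trim47-/- mice after 5-fluorouracil (5-FU), wild-type mice after 5-FU, untreated Trim47-/- mice and untreated wild-type mice. Trim47 is the gene of a TRIM-family ubiquitin ligase, and 5-FU is a drug that kills dividing cells, with 10 days given in the labels. Strain, age, sex, the deleted part of Trim47, the dose of 5-FU and the surface markers of the sort were not stated in the labels.

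Red cells are made in the marrow from stem cells through erythroid progenitors and erythroblasts. Erythroblasts join alpha and beta globin with haem into haemoglobin, the oxygen carrier. Iron for haem enters through the transferrin receptor, and the first step of haem synthesis in these cells is the work of Alas2. Slc4a1, also called band 3, exchanges chloride for bicarbonate across the red cell membrane, and the carbonic anhydrases convert carbon dioxide to bicarbonate. Globin RNA is very abundant in erythroblasts and reticulocytes. Car1, Car2 and Tfrc are less specific: Car2 and Tfrc are used by many cells, and Tfrc is known to be high in dividing cells.

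Total counts ran from 13919649 to 13953510 in Trim47-/- after 5-FU, from 15111811 to 15151589 in wild type after 5-FU, from 20661120 to 20703198 in untreated Trim47-/- and from 14828152 to 14885673 in untreated wild type. Levels below are CPM, counts scaled to library sizes adjusted by the TMM method, and a level with ± is a mean with its SD over 3 libraries. The labels name no separate animals, so the spread behind the p-values is that among libraries and may be technical only. It lay on both sides of the spread from counting alone. For Tfrc in untreated Trim47-/- the SD was 0.344% of the mean, where counting alone would give 1.68%. For Hbb-bs in Trim47-/- after 5-FU it was 10.9%, where counting alone would give 3.78%. Over the 9 genes and 4 groups, libraries of a group lay 1.01-fold to 1.67-fold apart, with a median of 1.09-fold. Trim47 RNA stood at 10.1, 12.2 and 11.6 CPM in Trim47-/- and 38.1, 33.2 and 34.7 CPM in wild type after 5-FU. In untreated mice it stood at 23.7, 18.9 and 16.6 CPM in Trim47-/- and 24.6, 23.7 and 24.7 CPM in wild type. That untreated difference, log2 -0.31, did not pass in edgeR's test (adjusted p = 0.0632), so Trim47-/- means here the libraries so labelled. All 12 markers of LT-HSCs chosen for the check, among them Procr, Kit, Mecom and Hlf, were detected in every group. Slamf1, which encodes CD150, was low in untreated mice, at 2.86 ± 0.106 CPM in Trim47-/- and 1.89 ± 0.459 CPM in wild type. The summed level of the 12 markers was 640 to 723 CPM in Trim47-/- after 5-FU, 1106 to 1259 CPM in wild type after 5-FU, 1207 to 1313 CPM in untreated Trim47-/- and 1040 to 1157 CPM in untreated wild type.

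The globin genes lie in 2 clusters. On GRCm38, Hba-a1 (ENSMUSG00000069919) is at chr11:32283511-32284465 and Hba-a2 (ENSMUSG00000069917) at chr11:32296489-32297298, both on the plus strand. Hbb-bs (ENSMUSG00000052305) is at chr7:103826534-103828096 and Hbb-bt (ENSMUSG00000073940) at chr7:103812524-103813996, both on the minus strand. The coding sequences of Hba-a1 and Hba-a2 matched at 428 of 429 bases, and those of Hbb-bs and Hbb-bt at 443 of 444. Of the 455 stretches of 100 bases in the Hba-a2 transcript, 339 (74.5%) also occurred in that of Hba-a1. Of the 604 in the Hbb-bt transcript, 331 (54.8%) occurred in that of Hbb-bs. The labels do not state how reads that match both copies were counted, so the division of counts within each pair is uncertain. Each pair was therefore also tested as a sum.

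The promoters are shown because alpha globin, beta globin and Alas2 RNA moved together in these libraries. Slc4a1 RNA moved with them too, and a part of the promoters in this was not tested. RefSeq sequences (GRCm38.p6) from 250 bases before the transcription start were found for 6 of the 9 genes, not for Slc4a1, Car1 and Car2. The windows of Hba-a1 and Hba-a2 were identical over the 297 bases that could be overlaid at an offset of 3. Those of Hbb-bs and Hbb-bt matched at 175 of 244 aligned bases (71.7%). Both strands were searched for 4 motifs of red cell and general promoters: the GATA motif, which may read AGATAA or end otherwise as AGATAG or begin otherwise as TGATAA or differ at both ends as TGATAG, the box read as CACCC, the box read as CCAAT, and the TATA box letters TATAA. Capitals mark the matches. Each stretch is printed 5′ to 3′ on the gene's strand, up to the first exon annotated by GENCODE, which for Hbb-bt cuts through a CCAAT match.
Hba-a2, chr11:32296242-32296488, plus strand: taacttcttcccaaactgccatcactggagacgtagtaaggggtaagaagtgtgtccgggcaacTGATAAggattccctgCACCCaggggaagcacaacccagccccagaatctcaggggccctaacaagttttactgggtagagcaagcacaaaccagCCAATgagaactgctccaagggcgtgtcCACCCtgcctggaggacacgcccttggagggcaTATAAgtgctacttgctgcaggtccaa
Hbb-bs, chr7:103828097-103828178, minus strand: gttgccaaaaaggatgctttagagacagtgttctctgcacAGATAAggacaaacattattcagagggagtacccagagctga
Hbb-bt, chr7:103813997-103814173, minus strand: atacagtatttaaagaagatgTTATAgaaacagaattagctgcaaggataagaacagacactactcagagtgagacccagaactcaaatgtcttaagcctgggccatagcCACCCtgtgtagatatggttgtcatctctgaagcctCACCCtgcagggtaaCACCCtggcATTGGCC
Alas2, chrX:150547167-150547374, plus strand: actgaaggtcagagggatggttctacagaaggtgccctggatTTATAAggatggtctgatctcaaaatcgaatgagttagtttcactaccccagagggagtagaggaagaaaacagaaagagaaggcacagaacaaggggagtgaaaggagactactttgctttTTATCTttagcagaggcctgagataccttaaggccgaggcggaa

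Over the full 250 bases, the GATA motif was found once each in Hba-a1, Hba-a2, Hbb-bs and Alas2, at 183, 186, 210 and 86 bases before the start, and not in Hbb-bt or Tfrc. It was present in 26.6% of 32817 RefSeq promoter windows of that length. CACCC was found in the windows of all 6 genes, and in 52% of all windows. CCAAT was found in all of the globin windows and in 1 of the 2 RefSeq windows of Tfrc, not in Alas2, and in 33.8% of all windows. TATAA lay 27 to 30 bases before the start in the 4 globin genes, and was found in 22.8% of all windows. No matches overlapped in these windows, except TATAA with its reverse complement in Alas2. A match describes the letters and not a bound site.

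Alas2 and Tfrc carry another known element, the iron-responsive element, a stem-loop in the messenger RNA bound by iron regulatory proteins when iron is scarce. In the 5′ untranslated region of Alas2 binding blocks translation, and in the 3′ untranslated region of Tfrc it protects the RNA from decay. The transcripts of GENCODE M21 (GRCm38) were searched on the sense strand for C, 5 bases, CAGTG with A, C or T after it, and 5 bases that pair with the first 5, with G to T pairs allowed. Such a match was found in the longest coding transcript of 204 of 21877 genes (0.932%). Among the 9 genes, Alas2 had 1 and Tfrc 4, and the other 7 genes had none. The 27-base sites are shown with the loop in capitals and T in place of U.
Alas2, 5′ untranslated region, chrX:150547459-150547485, plus strand: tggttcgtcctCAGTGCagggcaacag
Tfrc, 3′ untranslated region, chr16:32631220-32631246, plus strand: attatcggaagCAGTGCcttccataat
Tfrc, 3′ untranslated region, chr16:32631599-32631625, plus strand: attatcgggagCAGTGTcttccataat
Tfrc, 3′ untranslated region, chr16:32631664-32631690, plus strand: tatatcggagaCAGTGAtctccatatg
Tfrc, 3′ untranslated region, chr16:32631711-32631737, plus strand: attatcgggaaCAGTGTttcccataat
In untreated Trim47-/- mice, Alas2 RNA was higher and Tfrc RNA lower than in wild type, as given below. After 5-FU, Tfrc was higher in Trim47-/- (log2 0.36) and Alas2 did not pass (-0.10). The drug response was a rise of both in Trim47-/- (1.63 for Alas2, 0.46 for Tfrc). In wild type Alas2 rose by 2.55 and Tfrc fell by 0.15. A part of the elements in these RNA levels was not tested.

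Hba-a1, the more counted alpha globin, had 150.3, 154 and 149 CPM in Trim47-/- after 5-FU, against 163, 172 and 163 CPM in wild type after 5-FU. It had 57.1, 56.8 and 59.7 CPM in untreated Trim47-/- and 33.3, 33.5 and 31.96 CPM in untreated wild type. All 6 libraries after 5-FU lay above all 6 untreated libraries, and no groups overlapped. Hba-a2 had 6.92, 6.73 and 7.39 CPM in Trim47-/- after 5-FU and 7.57, 9.41 and 8.21 CPM in wild type after 5-FU. In untreated mice it had 3.77, 3.73 and 3.07 CPM in Trim47-/- and 1.59, 1.94 and 1.73 CPM in wild type. Its groups stood in the same order without overlap, at counts of 23 to 149 per library.

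Hbb-bt, the more counted beta globin, had 141, 144 and 138 CPM in Trim47-/- after 5-FU, against 177, 160.3 and 173 CPM in wild type after 5-FU. It had 43.8, 44.4 and 43.6 CPM in untreated Trim47-/- and 23.8, 27.8 and 26.4 CPM in untreated wild type. The order of groups was that of the alpha globins. Hbb-bs had 44.5, 52.5 and 55.2 CPM in Trim47-/- after 5-FU and 54.3, 59.3 and 61.6 CPM in wild type after 5-FU, where the ranges overlapped. It had 19.3, 17.9 and 16.3 CPM in untreated Trim47-/- and 10.7, 10.5 and 11.2 CPM in untreated wild type, where they did not.

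Alas2, which makes aminolevulinic acid from glycine and succinyl-CoA, had 7.43, 9.77 and 7.10 CPM in Trim47-/- after 5-FU and 9.78, 8.28 and 7.96 CPM in wild type after 5-FU. It had 2.11, 3.19 and 2.54 CPM in untreated Trim47-/- and 1.66, 1.73 and 1.03 CPM in untreated wild type. It was the least counted of the 9 genes in untreated wild type, with 15 to 25 counts per library, and the genotypes overlapped after 5-FU. Slc4a1 had 64.0, 65.5 and 63.5 CPM in Trim47-/- after 5-FU and 68.6, 71.9 and 66.7 CPM in wild type after 5-FU. It had 26.3, 24.7 and 25.0 CPM in untreated Trim47-/- and 11.5, 14.5 and 14.5 CPM in untreated wild type. Its groups did not overlap, although after 5-FU the genotypes lay close together.

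The carbonic anhydrases took another order. Car2, the fast cytosolic form, had 156, 157 and 166 CPM in Trim47-/- after 5-FU, against 284, 300.1 and 273 CPM in wild type after 5-FU. It had 322, 318 and 339 CPM in untreated Trim47-/- and 252, 239 and 257 CPM in untreated wild type. Its lowest group was Trim47-/- after 5-FU and its highest was untreated Trim47-/-. Car1, the slower form abundant in red cells, had 12.7, 11.9 and 10.9 CPM in Trim47-/- after 5-FU and 19.5, 17.6 and 16.9 CPM in wild type after 5-FU. It had 17.5, 18.5 and 17.6 CPM in untreated Trim47-/- and 15.0, 13.6 and 15.2 CPM in untreated wild type. Wild type after 5-FU and untreated Trim47-/- overlapped for Car1.

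Tfrc ran opposite to Car2 in the order of groups. It had 239, 238 and 241 CPM in Trim47-/- after 5-FU, against 191, 185 and 185 CPM in wild type after 5-FU. It had 174, 173 and 173 CPM in untreated Trim47-/- and 205, 208 and 210 CPM in untreated wild type. No groups overlapped, and all libraries lay between 172.9 and 241 CPM.

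**Figure D1:**
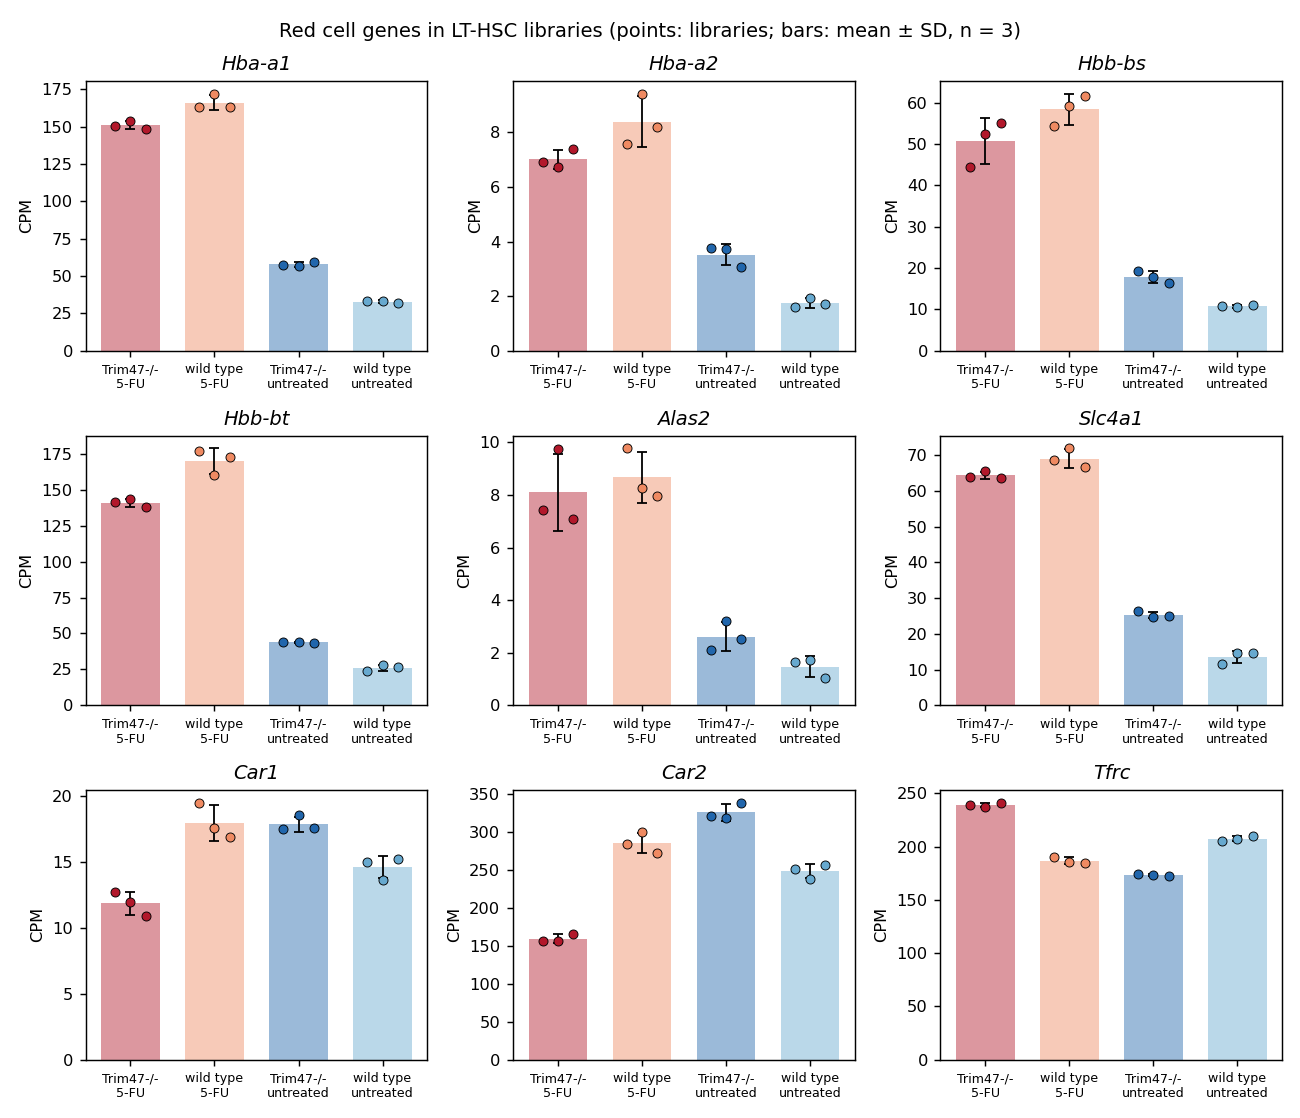
Level of each of the 9 genes in CPM (vertical axes, each from 0) in the 4 groups; points are libraries, bars are means and error bars SD (n = 3). The globins, Alas2 and Slc4a1 stand highest in the 2 groups after 5-FU, Car1 and Car2 are lowest in Trim47-/- after 5-FU, and Tfrc is highest there.

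To compare genes with one another, CPM was divided by the length of the longest coding transcript in kilobases. The deposited FPKM was not used for this, because its length term was the summed length of all distinct annotated exons of a gene, within 1% for 97.9% of 11201 genes. For Hbb-bs that length was 1379 bases against a transcript of 628 bases, and for Hbb-bt both were 703 bases. On this scale Hbb-bt to Hbb-bs stood at a ratio of 2.51 ± 0.307 in Trim47-/- after 5-FU, 2.61 ± 0.267 in wild type after 5-FU, 2.21 ± 0.182 in untreated Trim47-/- and 2.15 ± 0.191 in untreated wild type. Hba-a1 to Hba-a2 stood at 17.1 ± 1.09, 15.8 ± 1.31, 13.2 ± 1.93 and 15.0 ± 1.48 in the same order of groups. Because the copies share most of their sequence, these ratios depend on how shared reads were assigned.

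The sums of the alpha and of the beta genes do not depend on that division within a pair to the same degree. Per kilobase, alpha globin summed to 229 ± 3.24 CPM and beta globin to 281 ± 8.26 CPM in Trim47-/- after 5-FU, and to 253 ± 8.96 and 335 ± 11.1 CPM in wild type after 5-FU. They summed to 89.2 ± 1.58 and 90.9 ± 2.55 CPM in untreated Trim47-/-, and to 50.2 ± 1.31 and 54.2 ± 2.88 CPM in untreated wild type. The ratio of alpha to beta was 0.836, 0.807 and 0.796 in Trim47-/- after 5-FU and 0.730, 0.816 and 0.721 in wild type after 5-FU. It was 0.952, 0.961 and 1.03 in untreated Trim47-/- and 0.991, 0.913 and 0.881 in untreated wild type. The 6 libraries after 5-FU all had a lower ratio than the 6 untreated ones, while the genotypes overlapped in both states.

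All 4 globin genes together took 0.0347% ± 0.000618 of counts in Trim47-/- after 5-FU, 0.0422% ± 0.000201 in wild type after 5-FU, 0.0122% ± 6.37e-05 in untreated Trim47-/- and 0.00697% ± 0.000219 in untreated wild type. Ranked per kilobase among all tested genes, Hbb-bt stood at percentile 97.5 in Trim47-/- and 98.1 in wild type after 5-FU, and at 92.0 in Trim47-/- and 85.2 in wild type without the drug. Car2 was the highest of the 9 genes per kilobase in both untreated groups, at 182 ± 6.14 CPM in Trim47-/- and 139 ± 5.28 CPM in wild type. After 5-FU, Hba-a1 led in Trim47-/- (216 ± 3.77 CPM per kilobase) ahead of Hbb-bt (200.5 ± 4.03). In wild type after 5-FU, Hbb-bt (242 ± 12.5) and Hba-a1 (238 ± 7.38) did not differ beyond their spread. Alas2 was the lowest of the 9 in every group, from 0.724 ± 0.188 CPM per kilobase in untreated wild type to 4.26 ± 0.476 in wild type after 5-FU.

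In untreated mice, 8 of the 9 genes were higher in Trim47-/- than in wild type and Tfrc was lower. The background for these counts was 17.6% of the 16319 tested genes called higher and 15.4% called lower, in edgeR's quasi-likelihood test with Benjamini-Hochberg adjustment over all tested genes (adjusted p under 0.05). The genotypes did not overlap for any of the 9 genes, where 47.9% of all tested genes had no overlap, and the members' median log2 change was 0.76 against 0.0285 over all tested genes. Hba-a1 rose by 0.81 on the log2 scale (SE 0.0348, adjusted p = 2.69e-08), which is 1.76-fold. Hba-a2 rose by 1.01 (SE 0.138, adjusted p = 0.000222). The beta globins rose by 0.76 for Hbb-bt (SE 0.0541, adjusted p = 1.42e-06) and by 0.72 for Hbb-bs (SE 0.094, adjusted p = 0.000153). Tested as sums, the alpha pair rose by 0.82 (SE 0.0338) and the beta pair by 0.75 (SE 0.0434). Slc4a1 rose by 0.91 (SE 0.0758, adjusted p = 4.93e-06), and the carbonic anhydrases by less, 0.39 for Car2 (SE 0.0415, adjusted p = 3.3e-05) and 0.29 for Car1 (SE 0.0762, adjusted p = 0.0124). Tfrc fell by 0.26 on the log2 scale (SE 0.02, adjusted p = 2.65e-06).

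Alas2 rose by 0.82 (SE 0.238, adjusted p = 0.0209 in edgeR's test) in untreated Trim47-/- mice, but this call rested on few counts. It was lost without wild-type replicate 3 (adjusted p = 0.0828) and without Trim47-/- replicate 2 (adjusted p = 0.074), and its alternatives ranged from 0.0145 to 0.0828. Car1 lost its call without wild-type replicate 2 (adjusted p = 0.0508, range 0.0088 to 0.0508). In these bulk libraries, fewer cells of a type and less RNA per cell cannot be told apart.

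After 5-FU the picture between genotypes was different: the carbonic anhydrases were lower in Trim47-/-, Tfrc was higher, and the globins differed little. Of the 9 genes 1 was higher and 4 were lower, with 27.2% of all tested genes called higher and 27.6% called lower. With 54.7% of genes called in either direction, 5 of 9 is near the background. Car2 fell by 0.84 on the log2 scale (SE 0.0421, adjusted p = 2.52e-08 in edgeR's test), 1.79-fold. Car1 fell by 0.60 (SE 0.0785, adjusted p = 5.69e-05). Tfrc rose by 0.36 (SE 0.02, adjusted p = 6.04e-08). The globins that passed were Hbb-bt, at -0.27 (SE 0.0494, adjusted p = 0.000685), and Hba-a1, at -0.14 (SE 0.0324, adjusted p = 0.00384).

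Hba-a2 stood at -0.26 (adjusted p = 0.0594) and Hbb-bs at -0.20 (adjusted p = 0.0584) between the genotypes after 5-FU, and neither passed. Both fell just outside the threshold, and leaving out single libraries brought them across it. Hba-a2 passed without untreated Trim47-/- replicate 3 (0.0489) and without wild-type 5-FU replicate 1 (0.0329). Tested as a gene of its own, its alternatives ranged from 0.0329 to 0.253. Hbb-bs passed without wild-type 5-FU replicate 1 (0.0393) and without Trim47-/- 5-FU replicate 3 (0.0283), with a range of its own of 0.0283 to 0.23. As sums, the alpha pair stood at -0.14 (SE 0.0315, adjusted p = 0.00246) and the beta pair at -0.25 (SE 0.0404, adjusted p = 0.000259). Slc4a1, at -0.10 (SE 0.0681, adjusted p = 0.233), and Alas2, at -0.10 (SE 0.169, adjusted p = 0.651), did not pass.

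**Figure D2:**
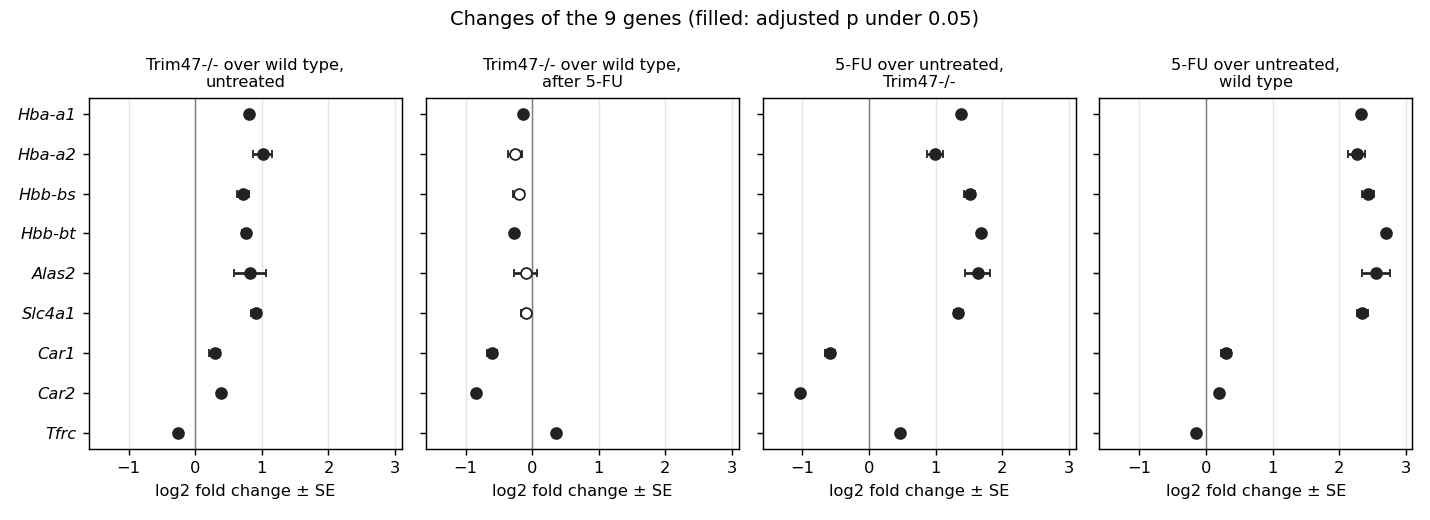
Log2 fold change with its SE (horizontal axes) of the 9 genes in 4 comparisons; filled points passed at an adjusted p under 0.05 in edgeR's test, open points did not. The globins, Alas2 and Slc4a1 lie between 0.99 and 1.68 after 5-FU in Trim47-/- and between 2.26 and 2.71 in wild type, while Car1, Car2 and Tfrc have opposite signs in the 2 genotypes.

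All 4 globin genes, Alas2 and Slc4a1 rose after 5-FU in both genotypes. In Trim47-/- mice, 7 of the 9 genes were higher after 5-FU and 2 were lower, against a background of 29.6% of tested genes called higher and 30.8% called lower. Hbb-bt rose by 1.68 (SE 0.0516, adjusted p = 2.55e-10 in edgeR's test), a 3.21-fold rise, and Hba-a1 by 1.38 (SE 0.0334, adjusted p = 3.14e-11), a 2.61-fold rise. Alas2 rose by 1.63 (SE 0.187), Hbb-bs by 1.51 (SE 0.0872), Slc4a1 by 1.34 (SE 0.0705) and Hba-a2 by 0.99 (SE 0.114). The 2 genes that fell were Car2, by 1.03 (SE 0.0421, adjusted p = 2.83e-09), and Car1, by 0.59 (SE 0.0777, adjusted p = 4.49e-05). Tfrc rose by 0.46 (SE 0.02, adjusted p = 4.33e-09).

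In wild type, 8 of the 9 genes were higher after 5-FU and Tfrc was lower, against a background of 25.2% of tested genes called higher and 25.4% called lower. Hbb-bt rose by 2.71 on the log2 scale (SE 0.0547, adjusted p = 8.33e-12 in edgeR's test), a 6.53-fold rise, and Hba-a1 by 2.33 (SE 0.0352, adjusted p = 6.41e-13), a 5.05-fold rise. Alas2 rose by 2.55 (SE 0.213), Hbb-bs by 2.43 (SE 0.0928), Slc4a1 by 2.35 (SE 0.0755) and Hba-a2 by 2.26 (SE 0.129). The 6 genes thus rose by 4.78-fold to 6.53-fold, while Car1 rose by 0.30 (SE 0.0771, adjusted p = 0.00688) and Car2 by 0.20 (SE 0.0415, adjusted p = 0.00199). Tfrc fell by 0.15 (SE 0.02, adjusted p = 7.15e-05).

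The difference between these responses, Trim47-/- minus wild type, was tested as an interaction. It passed for all 9 genes, where 54.9% of tested genes were called, 26.4% higher and 28.5% lower. For the 4 globins it lay between -0.92 (Hbb-bs, SE 0.126) and -1.27 (Hba-a2, SE 0.175), and for the sums it was -0.97 for alpha (SE 0.0462) and -1.00 for beta (SE 0.0593). The globin response to the drug was thus smaller in Trim47-/-, from a higher untreated level to a level after 5-FU close to that of wild type. Slc4a1 stood at -1.01 (SE 0.102) and Alas2 at -0.92 (SE 0.293, adjusted p = 0.0195 in edgeR's test). Alas2 lost this call without untreated wild-type replicate 3 (0.0586) and without untreated Trim47-/- replicate 2 (0.0521), with a range of 0.008 to 0.0586. For Car2 the interaction was -1.23 (SE 0.0591, adjusted p = 1.7e-08), for Car1 -0.89 (SE 0.109, adjusted p = 3.39e-05) and for Tfrc 0.62 (SE 0.0283, adjusted p = 1.21e-08), and for these the response itself had opposite signs in the 2 genotypes. The 4 pairwise comparisons share libraries, so their values are set side by side and not counted as separate support.

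The other genes of red cell formation were taken from lists of pathway members, with the 9 genes above left out. In Trim47-/- after 5-FU against untreated, 29.6% of all tested genes were called higher and 30.8% lower. Of 18 genes of the red cell membrane and its skeleton, 12 were higher and 1 lower, with a median log2 change of 0.59. Sptb, the beta spectrin of the membrane skeleton, rose by 0.89 (SE 0.0667) and the glycophorin Gypc fell by 0.61 (SE 0.0459). Of 16 genes for erythroid transcription factors and the erythropoietin receptor, 2 were higher and 8 were lower, with a median of -0.41. The 2 that rose, named after their values were seen, were Gata1, the master factor of erythroid and megakaryocytic cells, by 1.31 (SE 0.139) and Epor, the receptor, by 0.93 (SE 0.146). Bcl11a, a repressor of embryonic globin genes, fell to 71.0 ± 1.96 CPM after 5-FU, against 179 ± 3.71 CPM untreated. Tal1, which acts in stem cells and in the erythroid line, fell by 0.79 (SE 0.0401), and Ldb1, which bridges such factors at the globin locus, fell by 0.40 (SE 0.0181). Of the 8 other enzymes of haem synthesis, 2 were higher, among them Urod by 0.39 (SE 0.1), and Ppox was lower, at -0.45 (SE 0.04). These haem enzyme counts did not exceed the shares of all tested genes.

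In wild type after 5-FU against untreated, 25.2% of all tested genes were called higher and 25.4% lower. There, 18 of the 18 membrane genes were higher, with a median log2 change of 1.04. Sptb rose to 35.1 ± 0.443 CPM after 5-FU, against 11.9 ± 1.26 CPM untreated. Ank1, the ankyrin that ties spectrin to Slc4a1, rose by 1.32 (SE 0.0846), and the water channel Aqp1 by 0.94 (SE 0.0519). Of the 16 transcription factor genes, 12 were higher and 0 lower in wild type, with a median of 0.80. Gata1 rose to 19.2 ± 0.901 CPM after 5-FU, against 5.00 ± 1.24 CPM untreated, and Epor rose by 1.35 (SE 0.148). Of the 8 haem enzymes, 6 were higher and 0 lower, among them Fech, which inserts iron, by 0.53 (SE 0.0837). The interaction was negative and passed for 12 of the 16 transcription factor genes, 14 of the 18 membrane genes and 5 of the 8 haem enzymes. It was positive and passed for 0 genes of each of these lists. Among all tested genes, 28.5% passed with a negative interaction and 26.4% with a positive one.

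Between the genotypes in untreated mice, 17.6% of all tested genes were called higher and 15.4% lower in Trim47-/-. Of the membrane genes 8 were higher and 1 was lower (median 0.35). Gypc stood at 52.5 ± 1.91 CPM in Trim47-/- and 39.7 ± 1.88 CPM in wild type. The one that was lower was Mfsd2b, a lipid exporter of red cells and platelets, at -0.60 (SE 0.0881). After 5-FU against untreated, Mfsd2b rose by 1.95 (SE 0.0847) in Trim47-/- and by 1.65 (SE 0.083) in wild type, and its interaction did not pass. Of the transcription factors 6 were higher and 0 lower (median 0.20), and of the haem enzymes 4 were higher and 0 lower (median 0.19). Tal1 rose by 0.61 (SE 0.0397) and Fech by 0.35 (SE 0.0833). After 5-FU, 27.2% of all tested genes were called higher and 27.6% lower in Trim47-/-. There, 10 membrane genes were lower and 0 higher (median -0.31). Gypc stood at 34.4 ± 1.02 CPM in Trim47-/- and 57.5 ± 1.19 CPM in wild type. Of the transcription factor genes 12 were lower and 0 higher (median -0.80), among them Bcl11a (-1.18, SE 0.032) and Tal1 (-1.02, SE 0.0402), which had the smallest p-values of the list. The 4 globin genes stood at -0.14 to -0.27 in that comparison, nearer to 0 than the median of the transcription factor list.

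Of 12 red cell enzymes and antioxidants, 4 were higher and 1 lower after 5-FU in Trim47-/-, and 7 higher and 1 lower in wild type. The drug response of all tested genes was called higher for 29.6% and lower for 30.8% in Trim47-/-. In wild type these shares were 25.2% and 25.4%. Cat, the catalase gene, fell by 0.27 (SE 0.0406) in Trim47-/- and rose by 0.39 (SE 0.0407) in wild type, and its interaction was -0.66 (SE 0.0575, adjusted p = 2.1e-06 in edgeR's test). Between the genotypes 3 of the 12 were higher and 0 lower in untreated mice, beside 17.6% and 15.4% of all tested genes. After 5-FU 1 was higher and 5 were lower, beside 27.2% and 27.6% of all tested genes, which is near the background. Of 20 iron genes other than Tfrc, 12 were higher and 0 lower after 5-FU in Trim47-/-, and 9 higher and 0 lower in wild type. The shares of all tested genes for the drug response are those given for the enzymes. Between the genotypes 2 iron genes were higher and 1 was lower in untreated mice, and 4 were higher and 2 lower after 5-FU. In both states these were fewer than the genotype shares of all tested genes given above would give.

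Among the iron genes, the second transferrin receptor Tfr2, which is known to associate with the erythropoietin receptor, had the signs of Car1 and Car2, not of Tfrc, between the genotypes. After 5-FU it rose in both genotypes, by 0.36 (SE 0.0405) in Trim47-/- and by 1.29 (SE 0.041) in wild type. It stood at 94.2 ± 4.1 CPM in Trim47-/- and 162 ± 7.55 CPM in wild type after 5-FU, a change of -0.79 (SE 0.0403, adjusted p = 3.03e-08 in edgeR's test). It stood at 73.3 ± 1.15 CPM in untreated Trim47-/- and 66.3 ± 1.36 CPM in untreated wild type, a rise of 0.14 (SE 0.0409). The genes of the proteins that bind the elements printed above also differed between untreated genotypes. Ireb2, for iron regulatory protein 2, stood at 62.8 ± 3.16 CPM in Trim47-/- and 72.7 ± 3.23 CPM in wild type, a change of -0.21 (SE 0.0484). Aco1, for iron regulatory protein 1, stood at 43.7 ± 0.881 CPM in Trim47-/- and 35.6 ± 1.97 CPM in wild type, a rise of 0.30 (SE 0.0553). The interaction was 0.35 (SE 0.0686) for Ireb2 and -0.42 (SE 0.0782) for Aco1, and a link of either to Tfrc was not tested.

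Of 14 other carbonic anhydrase genes, 12 were in the table and 7 were tested. Between the genotypes after 5-FU, 1 was higher and 3 were lower in Trim47-/-, which is near the 54.7% called over all tested genes. Car12, a membrane-bound form, rose by 0.87 (SE 0.111), and Car5b, a mitochondrial form, changed by -1.36 (SE 0.186), Car9 by -0.53 (SE 0.126) and Car3 by -0.59 (SE 0.171). In untreated mice Car12 fell by 0.46 (SE 0.112) and the other 6 did not pass. The response to 5-FU was higher for 2 and lower for 1 in Trim47-/-, and higher for 3 and lower for 1 in wild type. That response was called higher for 29.6% and lower for 30.8% of all tested genes in Trim47-/-. In wild type these shares were 25.2% and 25.4%. Car12 had an interaction of 1.33 (SE 0.157), opposite in sign to those of Car1 and Car2. Of the embryonic and minor globin genes with a row, Hbq1b had 27 counts over all 12 libraries, Hbb-y had 2 and Hbq1a had 1, too few to test.

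**Figure D3:**
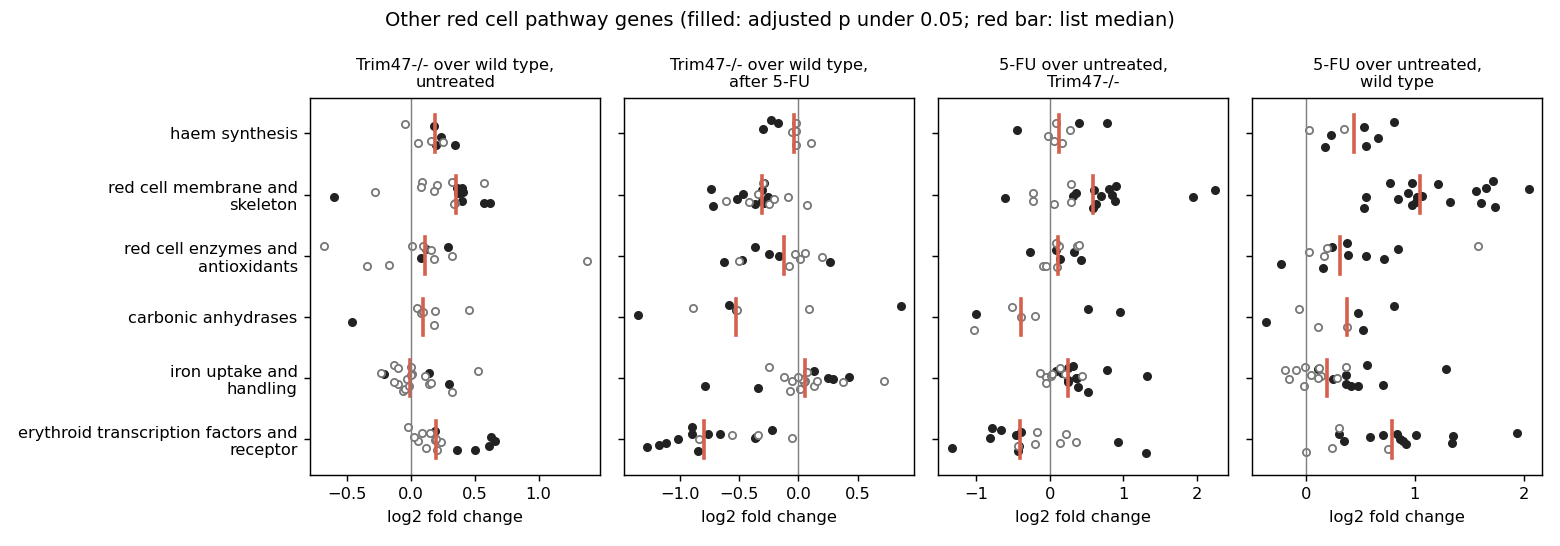
Log2 fold changes (horizontal axes) of the other red cell genes by list in 4 comparisons; each point is 1 gene, filled where it passed at an adjusted p under 0.05, and red bars are list medians. The median of the erythroid transcription factors is -0.41 in Trim47-/- and 0.80 in wild type for the drug response, whereas that of the membrane genes is 0.59 in Trim47-/- and 1.04 in wild type.

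Other genes with a profile like that of Hba-a1, Hbb-bs, Alas2, Slc4a1, Car1, Car2 or Tfrc were ranked by the root mean square difference of log2(CPM + 1), centred on each gene's mean over the 12 libraries. Only genes whose mean level reached 10 CPM were ranked, 9255 in all. Chil3, a chitinase-like secreted protein of myeloid cells, was the nearest gene to Hba-a1 (0.167 in log2 units), Hbb-bs (0.196), Alas2 (0.172) and Slc4a1 (0.193). Alas2 itself, at group means of 1.47 to 8.67 CPM, lay below the limit of 10 CPM. The added 1 CPM shrinks its changes on this scale, so its distances are less certain. Chil3 stood at 92.5 ± 4.22 CPM in Trim47-/- and 105 ± 2.79 CPM in wild type after 5-FU, and at 38.3 ± 0.985 CPM in untreated Trim47-/- and 26.8 ± 1.67 CPM in untreated wild type. Next came Lrg1, S100a6, Abca4 and Cd177, at 0.261 to 0.340, of which Lrg1 and Cd177 are known from neutrophils. These distances describe 12 libraries in 4 groups, and many genes can share so few group levels.

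Car1, Car2 and Tfrc had other neighbours. The nearest to Car2 was Tspyl3 (0.0514), and the nearest to Car1 were Pank2 (0.0644), Cd27 (0.0674) and Gramd4 (0.0689). Tspyl3 stood at 15.8 ± 0.861 CPM in Trim47-/- and 27.95 ± 1.47 CPM in wild type after 5-FU, and at 30.9 ± 0.421 CPM in untreated Trim47-/- and 24.2 ± 0.921 CPM in untreated wild type. The nearest to Tfrc were Nup210, a nuclear pore protein (0.0261), Usp14, a deubiquitinase of the proteasome (0.0315), and the pseudogene Rpl36a-ps3 (0.0355). Nup210 stood at 667 ± 11 CPM in Trim47-/- and 513 ± 1.18 CPM in wild type after 5-FU, and at 472 ± 14.6 CPM in untreated Trim47-/- and 565 ± 8.41 CPM in untreated wild type.

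**Figure D4:**
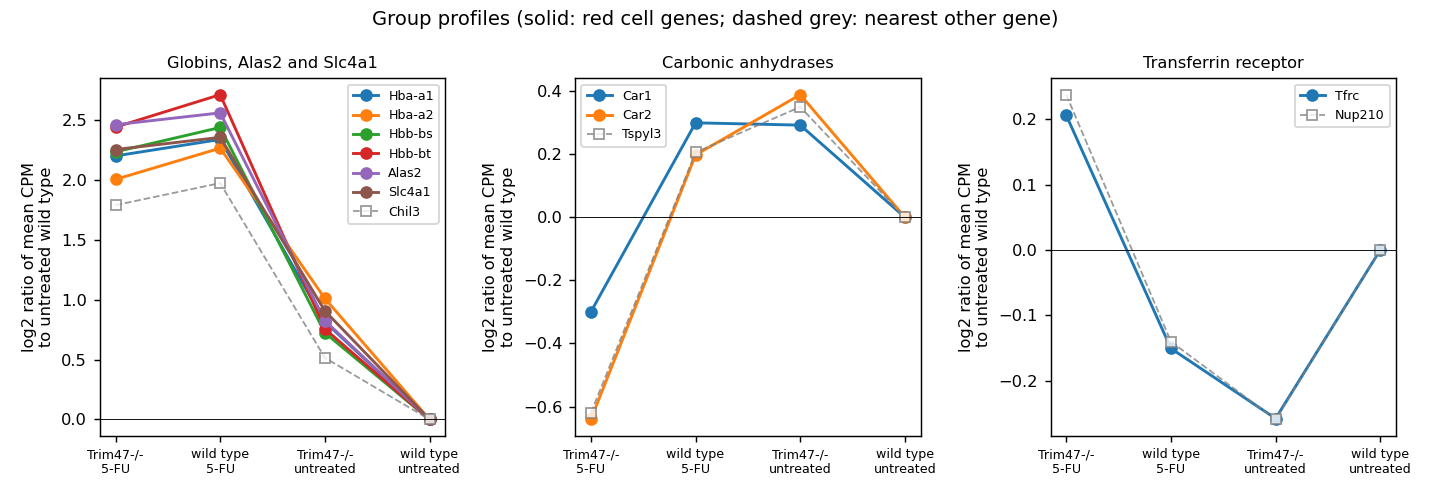
Log2 ratio of each gene's mean CPM to its mean in untreated wild type (vertical axes) in the 4 groups; solid lines are the 9 red cell genes and dashed grey lines the nearest other gene of Hba-a1, of Car2 and of Tfrc, with lines joining the groups of a gene. The globins, Alas2 and Slc4a1 lie at about the same height in both groups after 5-FU, unlike Car2, whose mean is 160 CPM in Trim47-/- and 286 CPM in wild type after 5-FU.

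Markers of other marrow cells, and of LT-HSCs, also differed between these groups. Between the genotypes after 5-FU, 0 of the 12 LT-HSC markers were higher and 11 were lower in Trim47-/-. The shares of all tested genes there were 27.2% higher and 27.6% lower. In untreated mice 6 of the 12 were higher and 0 lower, beside 17.6% and 15.4% of all tested genes. The 14 neutrophil markers summed to 6623 to 7003 CPM in Trim47-/- and 4131 to 4209 CPM in wild type after 5-FU, and to 3272 to 3326 CPM in untreated Trim47-/- and 3334 to 3473 CPM in untreated wild type. After 5-FU against untreated, 14 of these 14 were higher in Trim47-/- and 11 were higher in wild type, none lower. The shares of all tested genes called higher were 29.6% in Trim47-/- and 25.2% in wild type. Between the genotypes, 7 of the 14 neutrophil markers were higher and 3 lower in untreated Trim47-/-, and 13 higher and 0 lower after 5-FU. The 15 erythroid markers with a row, which include the 4 globins, Alas2 and Slc4a1, summed to 486 to 499 CPM in Trim47-/- and 583.7 to 585.5 CPM in wild type after 5-FU, and to 205 to 212 CPM in untreated Trim47-/- and 126 to 136 CPM in untreated wild type. These sums are largely the levels of those genes, and so no separate measure of erythroid cells. In Trim47-/- after 5-FU, Hba-a1 stood at 151 CPM and Hbb-bt at 141 CPM. Among the markers that are not members, Hemgn fell there by 0.82 (SE 0.0824) against untreated, Klf1 did not pass, and the rest rose.

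The 14 megakaryocyte and platelet markers summed to 264 to 272 CPM in Trim47-/- and 335 to 341 CPM in wild type after 5-FU, and to 130.2 to 133 CPM in untreated Trim47-/- and 177 to 180 CPM in untreated wild type. In untreated Trim47-/- against wild type, 0 of the 13 tested were higher and 10 were lower, opposite in direction to the globins. Among all tested genes, 17.6% were higher and 15.4% lower in that comparison. The 14 monocyte and macrophage markers summed to 1609 to 1634 CPM in Trim47-/- and 1135 to 1182 CPM in wild type after 5-FU, and to 1405 to 1540 CPM in untreated Trim47-/- and 1822 to 1891 CPM in untreated wild type. Klf4 alone stood at 440 CPM in Trim47-/- and 477 CPM in wild type after 5-FU, and at 870 and 1027 CPM untreated. After 5-FU against untreated, 8 of the 13 tested were higher and 2 lower in Trim47-/-, and 2 higher and 8 lower in wild type. The shares of all tested genes called higher and lower were 29.6% and 30.8% in Trim47-/-, and 25.2% and 25.4% in wild type. The 10 B and plasma cell markers summed to 244 to 280 CPM in Trim47-/- and 285 to 340 CPM in wild type after 5-FU, and to 489 to 682 CPM in untreated Trim47-/- and 694 to 708 CPM in untreated wild type. The 8 mast cell and basophil markers summed to 84.9 to 87.4 CPM in Trim47-/- and 68.6 to 75.1 CPM in wild type after 5-FU, and to 118 to 122 CPM in untreated Trim47-/- and 112 to 117 CPM in untreated wild type. In none of these lists was a marker at 0 in a whole group. The part of these cell types in the changes of the red cell genes was not tested.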

How the data were processed

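The authors deposited 1 table with a whole-number count per gene and library, not normalised, and an FPKM value for each. Per the submitters' processing notes, CASAVA 1.8, HISAT2, StringTie and edgeR were used with the build GRCm38. The step each tool did, the strand setting and the annotation release were not stated. Libraries were stranded and paired-end, from poly-A RNA, per the labels' protocols. Levels between genes were to be compared on the deposited FPKM, but its length term proved to be all exons summed, so CPM per kilobase of the longest coding transcript (GENCODE M21) was used instead, a choice made after seeing the files.

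Columns were matched to samples by the short sample codes in the labels. Counts were fitted with edgeR 4.0.16 in R 4.3.3 (TMM, default filter on low counts, quasi-likelihood test). A single fit held the 12 libraries, with a mean for each group. The threshold was an adjusted p under 0.05 (Benjamini-Hochberg, 16319 tested genes). SE is the absolute log2 change divided by the square root of F. The procedure was tested on simulated counts. The alternatives were DESeq2's size factors, the DESeq2 1.42.0 test, no filter, the replicate number as a block, only the 6 libraries compared, an adjusted p under 0.01, near-identical copies summed, and each library left out. Python 3.11.15, pandas 2.3.3, numpy 2.4.6 and matplotlib 3.10.9 were used for the rest.

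The members and lists were chosen with earlier results of these data known. Named from each pathway list were up to 4 genes with the smallest p per comparison. For genes of like pattern, the pool left out members, Gm and Rik models, and segments of immunoglobulins and T-cell receptors. A few of the genes so chosen are left unreported.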

Additional observations from a re-analysis of the deposited data

Results flagged for a closer look

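For all 9 genes the response to 5-FU differed between Trim47-/- and wild type by the interaction test of edgeR, given as the response in Trim47-/- minus that in wild type on the log2 scale. It was -0.95 for Hba-a1, -1.27 for Hba-a2, -0.92 for Hbb-bs and -1.03 for Hbb-bt. It was -0.92 for Alas2, -1.01 for Slc4a1, -0.89 for Car1, -1.23 for Car2 and 0.62 for Tfrc. The interaction passed for 54.9% of all tested genes, so a difference of this kind is common in these libraries.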

How the results depend on the processing

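No change of the 9 genes reversed direction under any alternative run. Of 306 values under alternatives other than leaving out a library, 301 kept their side of the threshold, and of 540 values with 1 library left out, 531 did. With copies summed, the value of a pair was entered for both of its genes. The changed calls of Hba-a2 and Hbb-bs among the 306 are such sums. The exceptions are named in the report, apart from Alas2 and Car1 in untreated mice and the Alas2 interaction, whose adjusted p missed 0.01. At an adjusted p under 0.01, 3391 genes passed between the untreated genotypes, against 5392 at 0.05. Leaving out 1 library gave 4551 to 5432 genes and 8 to 9 of the 9 members for that comparison, and 8222 to 8928 genes and 5 to 7 members between the genotypes after 5-FU. It gave 9177 to 9914 genes for 5-FU in Trim47-/- and 7520 to 8381 in wild type, with 9 members each, and 8556 to 8684 genes and 8 to 9 members for the interaction. The replicate numbers did not pair the libraries: correlations of same-numbered libraries ran from -0.109 to 0.093, and 13 of 36 closest matches had the same number. With the replicate block all 45 calls of members were kept, and 5188 genes passed between the untreated genotypes. Alas2 and Hba-a2 rested on the fewest counts, 15 to 25 and 23 to 28 in untreated wild type, which limits their precision.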
